A study of Homo sapiens with 12 samples.

Results

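Interleukin-1 ligands, their antagonist and their receptors were followed in LX-2, an immortalised human line derived from hepatic stellate cells, the main matrix-producing cells of the fibrotic liver. The genes described are the rows named IL1A, IL1B, IL18, IL33, IL1RN, IL1R1, IL1RAP and IL1RL1, which are 8 of the 58735 genes in the deposited count table. They were chosen by their measured differences between these groups, seen in an earlier reading of the same counts, so their values are given as a description without a test. RNA sequencing covered 12 libraries in 4 groups of 3. The SiNAT10_TGFB cells were transfected, using Lipofectamine, with siRNA against NAT10, an RNA cytidine acetyltransferase, and received TGF-β1 at 5 ng/ml 48 h later for 24 h. The SiNAT10 cells are labelled as having the siRNA without TGF-β1, the TGFB cells had TGF-β1 alone at that dose and time, and the con cells were untreated. All groups are the same line with the genotype given as wild type. No group with a control siRNA is named, so the effects of transfection and of NAT10 loss cannot be told apart in the siRNA comparisons. When the SiNAT10 cells were harvested after transfection is not stated in the labels.

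Interleukin-1α and interleukin-1β are cytokines that signal through the receptor IL1R1 together with the accessory protein IL1RAP, which leads through MYD88 and IRAK kinases to NF-kB and to chemokine, cytokine and protease genes. Interleukin-1α is active as made and acts as an alarm signal from damaged cells, whereas interleukin-1β and interleukin-18 are made as precursors that inflammasome caspases cut. Interleukin-33 signals through IL1RL1, also called ST2, with the same accessory protein, and IL1RN encodes a secreted antagonist that occupies IL1R1 without signalling. In injured liver, interleukin-1 from macrophages and other cells is known to act on stellate cells and to raise their output of matrix proteases and chemokines.

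Total counts were 25877008 to 35132582 per library, and levels are given as CPM, counts divided by library size after scaling by the trimmed mean of M values (TMM). NAT10 averaged 18.6 ± 2.51 CPM in SiNAT10_TGFB and 18.6 ± 0.817 CPM in SiNAT10, against 67 ± 1.19 CPM in TGFB and 67.2 ± 3.75 CPM in con cells (SD, n = 3 each). Of 15 stellate cell and fibroblast markers, 10 had enough counts to be tested, led by COL1A1, while the vitamin A enzyme LRAT and the proteoglycan DCN had 0 counts in all libraries. The summed level of these markers was 2190 to 2480 CPM in SiNAT10_TGFB, 1760 to 1840 CPM in SiNAT10, 8950 to 9570 CPM in TGFB and 4370 to 4600 CPM in con cells. The libraries of a group are labelled biological replicates with no cultures named, so errors and p-values cover only the variation among these libraries, which may be technical. In such bulk samples, fewer cells making a transcript and less of it per cell cannot be told apart.

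IL1A and IL1B lie next to each other on chromosome 2 and had the largest siRNA-linked differences among the well-counted members, so the RefSeq sequences around a start site of each are shown (GRCh38.p14, minus strand, 250 bases before to 50 after the start site, 5′ to 3′). The IL1A window is chr2:112784444-112784743 and the IL1B window chr2:112836730-112837029. Capitals mark matches to 3 motifs searched on both strands: AP-1 (TGACTCA or its reverse complement TGAGTCA), the kappa-B motif of NF-kB, and C/EBP (TTGCNNAA).
IL1A: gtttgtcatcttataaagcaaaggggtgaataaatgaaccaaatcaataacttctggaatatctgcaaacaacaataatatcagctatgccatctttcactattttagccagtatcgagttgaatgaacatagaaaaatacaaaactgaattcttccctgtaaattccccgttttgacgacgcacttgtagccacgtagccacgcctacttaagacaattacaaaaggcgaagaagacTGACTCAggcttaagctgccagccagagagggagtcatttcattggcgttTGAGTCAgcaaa
IL1B: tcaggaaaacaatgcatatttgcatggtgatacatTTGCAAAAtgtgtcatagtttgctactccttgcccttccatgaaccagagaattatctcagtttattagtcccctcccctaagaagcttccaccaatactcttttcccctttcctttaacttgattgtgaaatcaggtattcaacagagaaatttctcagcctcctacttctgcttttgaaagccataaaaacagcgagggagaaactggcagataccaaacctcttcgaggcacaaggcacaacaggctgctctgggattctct
The IL1A window holds AP-1 matches at −12 to −6 and at 38 to 44 relative to the start site, counted as 0, and the IL1B window holds a C/EBP match at −215 to −208. Neither window held a kappa-B match. The second IL1A start site listed by RefSeq has a window that overlaps the first and holds the same pair of AP-1 matches. Of 15 windows listed for 7 of the 8 members, 3 held AP-1, 2 held C/EBP and 0 held kappa-B, and no motif overlapped another in the printed windows. Over 35114 such windows of all genes, 4.95% held AP-1, 10.5% held C/EBP and 5.91% held kappa-B. TATAAA, a motif known from core promoters, or its reverse complement TTTATA was found in 4 of the 15 windows and in 11.5% of all. In the printed IL1A window TATAAA lies at −239 to −234. These matches describe letters in the windows and are not binding sites. IL18 was not matched.

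IL1A (ENSG00000115008; hg38 chromosome 2, 112773915 to 112784590, minus strand), the gene of interleukin-1α, was low in both groups without siRNA and high in both groups with it. It stood at 106, 104 and 97.2 CPM in SiNAT10_TGFB, at 82.2, 87.9 and 103 CPM in SiNAT10, at 5.22, 4.85 and 7.19 CPM in TGFB and at 5.52, 5.33 and 5.18 CPM in con libraries. Every siRNA library was above every library without siRNA, and the TGFB and con libraries overlapped, as did those with the siRNA. The fitted log2 fold change was 4.16 for SiNAT10_TGFB against TGFB (standard error (SE) 0.12, 95% interval 3.92 to 4.40), which is 17.9-fold, and 4.09 for SiNAT10 against con (SE 0.12). TGFB and con differed by 0.10 on the log2 scale, with a 95% interval of −0.18 to 0.38, and SiNAT10_TGFB differed from SiNAT10 by 0.17 (SE 0.093). Ordered by log2 fold change among 18560 genes, IL1A was 93rd from the top with TGF-β1 and 96th without it. TGFB replicate 3 held the highest of the values without siRNA, and without that library the TGFB difference was −0.10.

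IL1B (ENSG00000125538; chromosome 2, 112829751 to 112836903, minus strand), the gene of interleukin-1β, was already the most abundant member in con cells and stood far higher with the siRNA. It had 759, 824 and 791 CPM in SiNAT10_TGFB, 837, 787 and 886 CPM in SiNAT10, 67.5, 60.2 and 64.4 CPM in TGFB and 81.4, 82.4 and 87.4 CPM in con libraries. The siRNA libraries lay far above the others, and each TGFB library lay below each con library. The log2 fold change was 3.63 for SiNAT10_TGFB against TGFB (SE 0.065, 12.4-fold) and 3.32 for SiNAT10 against con (SE 0.064, 9.99-fold). It was −0.39 for TGFB against con (SE 0.061) and −0.08 for SiNAT10_TGFB against SiNAT10 (SE 0.058). By FPKM (fragments per kilobase of gene length, scaled to depth), which allows levels of different genes to be compared, IL1B averaged 256 ± 10.5 FPKM in SiNAT10_TGFB and 270 ± 16.4 FPKM in SiNAT10, against 20.7 ± 1.16 FPKM in TGFB and 27 ± 1 FPKM in con cells (SD, n = 3 each). Ordered by FPKM level, IL1B was gene 86 of 58735 in SiNAT10_TGFB and gene 70 in SiNAT10, against gene 2338 in TGFB and gene 1642 in con cells.

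IL1A differed more than IL1B in both siRNA comparisons, while IL1B differed more for TGFB against con, and the balance of the ligand transcripts differed between groups. The FPKM ratio of IL1B over IL1A was 5.31 ± 0.345 in SiNAT10_TGFB, 6.34 ± 0.577 in SiNAT10, 7.85 ± 1.49 in TGFB and 10.8 ± 0.733 in con cells (SD, n = 3 each). Single libraries ran from 4.92 to 5.58 in SiNAT10_TGFB, from 5.88 to 6.98 in SiNAT10, from 6.15 to 8.88 in TGFB and from 10.1 to 11.6 in con. The SiNAT10_TGFB libraries were all below the TGFB ones and the SiNAT10 ones all below con, whereas SiNAT10 and TGFB overlapped. The lowest TGFB ratio came from TGFB replicate 3.

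**Figure D1:**
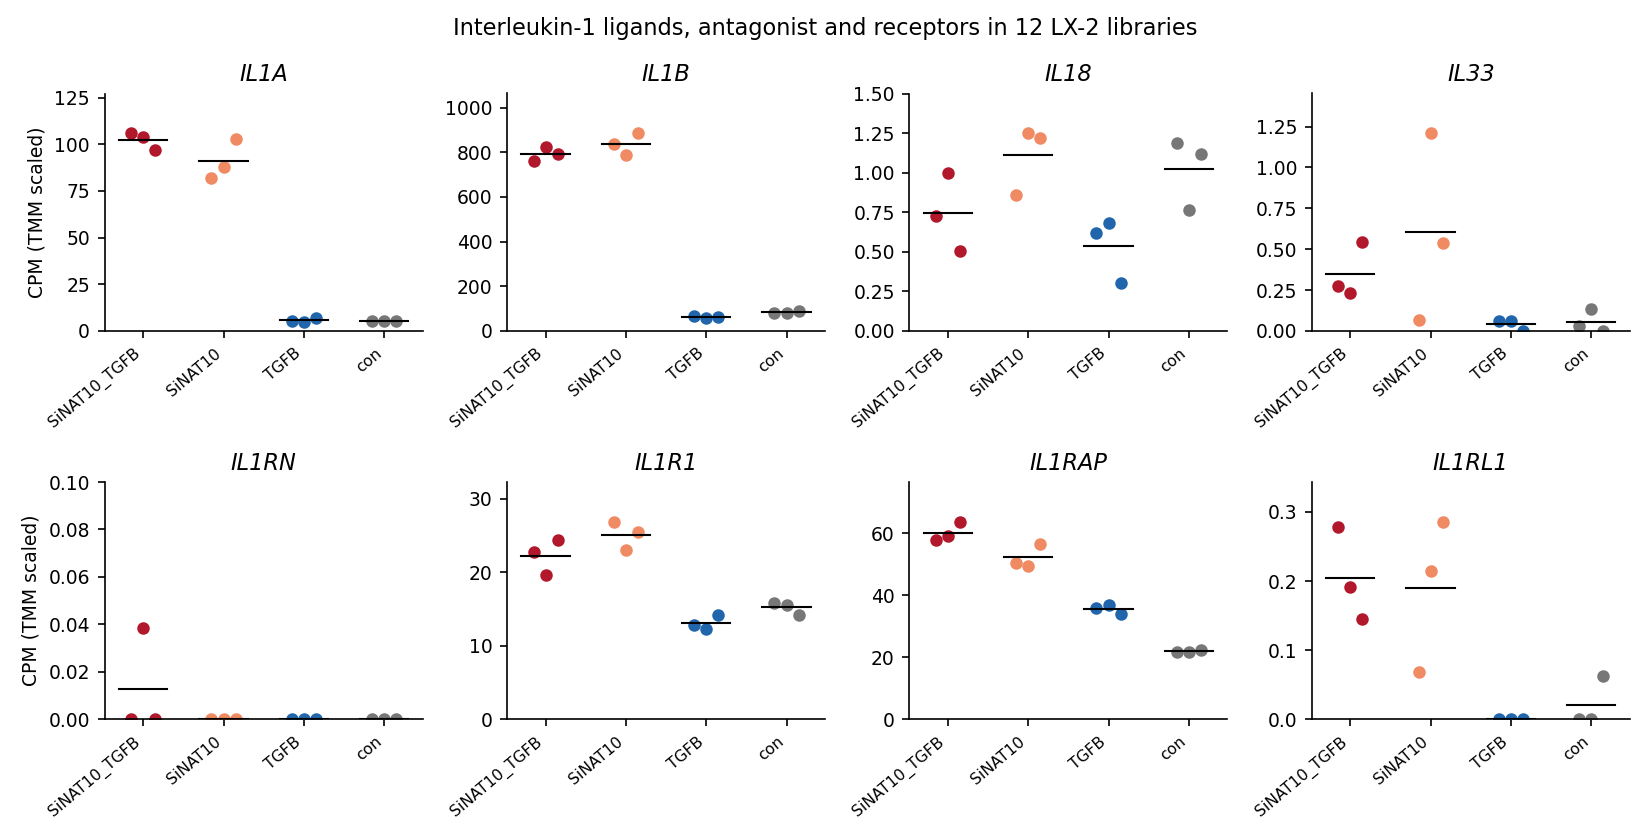
Level of each member in every library, in TMM-scaled CPM on linear axes that start at 0, with 1 point per library, a line at the mean of 3, and a separate axis range for each gene. IL1A and IL1B stand at 82.2 CPM or more and 759 CPM or more in siRNA libraries, while IL18, IL33, IL1RN and IL1RL1 stay at 1.25 CPM or less.

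IL18 (ENSG00000150782; chromosome 11, 112143251 to 112164117, minus strand), which encodes interleukin-18, an inducer of interferon-γ, was scarcely counted. It had 0.729, 0.998 and 0.507 CPM in SiNAT10_TGFB, 0.858, 1.25 and 1.22 CPM in SiNAT10, 0.617, 0.683 and 0.304 CPM in TGFB and 1.19, 0.767 and 1.12 CPM in con libraries. The TGFB libraries were below the con libraries and below the SiNAT10 libraries, and the other pairs of groups overlapped. The log2 fold change was −0.93 for TGFB against con, with a 95% interval of −1.76 to −0.11, and −0.57 for SiNAT10_TGFB against SiNAT10 (SE 0.39). With the siRNA it was 0.46 under TGF-β1 (95% interval −0.39 to 1.32) and 0.10 without it (SE 0.38), which is within the spread of the libraries.

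IL33 (ENSG00000137033; chromosome 9, 6215786 to 6257983, plus strand), which encodes the nuclear alarm cytokine interleukin-33, had few counts, nearly all of them with the siRNA. Counts were 8, 6 and 15 in SiNAT10_TGFB, 2, 34 and 15 in SiNAT10, 2, 2 and 0 in TGFB and 1, 4 and 0 in con libraries. The SiNAT10 libraries were uneven and overlapped the con libraries, because replicate 1 had 2 counts. Pooled over a group, the level was 0.352 CPM in SiNAT10_TGFB (exact Poisson 95% interval 0.235 to 0.505), 0.599 CPM in SiNAT10 (0.446 to 0.788), 0.0425 CPM in TGFB (0.0116 to 0.109) and 0.0518 CPM in con (0.0168 to 0.121), where the intervals cover counting error only. The fitted log2 fold change was 2.94 for SiNAT10_TGFB against TGFB (95% interval 0.75 to 5.12) and 3.43 for SiNAT10 against con (SE 0.97). For SiNAT10 against con it was 2.43, no longer called, without SiNAT10 replicate 2, and for SiNAT10_TGFB against TGFB it was 2.43 without TGFB replicate 3 and 2.48 without SiNAT10_TGFB replicate 3, also not called. IL33 passed the count filter only through its siRNA libraries.

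IL1RN (ENSG00000136689; chromosome 2, 113107214 to 113134016, plus strand), the receptor antagonist, was not detected beyond a single count. That count was in SiNAT10_TGFB replicate 2, and the other 11 libraries had 0. The floor of 3 counts over a group, used here as the limit for 0 counts, corresponds to 0.0353 CPM in SiNAT10, 0.0318 CPM in TGFB and 0.0311 CPM in con cells, for counting error only, and no fold is given. The highest library level of the antagonist transcript was 0.0384 CPM, in the group where IL1B averaged 791 CPM.

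IL1R1 (ENSG00000115594; chromosome 2, 102064544 to 102179874, plus strand), the signalling receptor for both interleukin-1 ligands, differed less than they did. It had 22.7, 19.6 and 24.4 CPM in SiNAT10_TGFB, 26.9, 23 and 25.5 CPM in SiNAT10, 12.8, 12.3 and 14.2 CPM in TGFB and 15.9, 15.6 and 14.2 CPM in con libraries. All siRNA libraries were above all others, and the TGFB and con libraries met at 14.2 CPM. The log2 fold change was 0.77 for SiNAT10_TGFB against TGFB (SE 0.1) and 0.72 for SiNAT10 against con (SE 0.1), and −0.22 for TGFB against con (SE 0.11). Of its exon bases 0.155% lie opposite the antisense gene IL1R1-AS1.

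IL1RAP (ENSG00000196083; chromosome 3, 190514051 to 190659750, plus strand), the shared accessory protein, was the member that stood higher with TGF-β1 as well as with the siRNA. It had 57.9, 59 and 63.8 CPM in SiNAT10_TGFB, 50.6, 49.6 and 56.6 CPM in SiNAT10, 35.8, 36.8 and 34 CPM in TGFB and 21.9, 21.9 and 22.3 CPM in con libraries. The 4 groups did not overlap, and con was the lowest and SiNAT10_TGFB the highest. The log2 fold change was 0.69 for TGFB against con (SE 0.077, 1.61-fold) and 1.25 for SiNAT10 against con (SE 0.077, 2.37-fold). It was 0.76 for SiNAT10_TGFB against TGFB (SE 0.075) and 0.20 for SiNAT10_TGFB against SiNAT10 (SE 0.074). The gene counts merge membrane-bound and secreted forms of the protein, and 4.629% of its exon bases are shared with the same-strand gene AC108747.1.

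The balance of the receptor chains differed between groups. The FPKM ratio of IL1RAP over IL1R1 was 1.67 ± 0.154 in SiNAT10_TGFB, 1.28 ± 0.112 in SiNAT10, 1.67 ± 0.192 in TGFB and 0.888 ± 0.0653 in con cells (SD, n = 3 each). The con libraries, at 0.842 to 0.963, were below the libraries of every other group, and the SiNAT10 libraries, at 1.15 to 1.36, were below those of both TGF-β1 groups. The size of this ratio, like that of IL1B over IL1A, depends on the gene lengths used, while its order between groups does not.

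**Figure D2:**
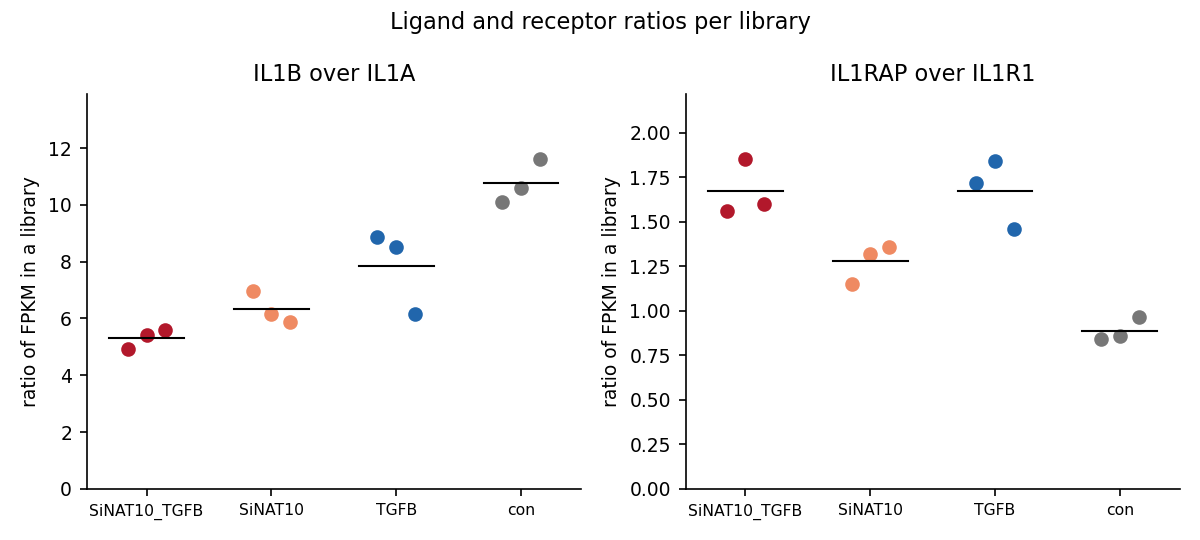
FPKM ratio of IL1B over IL1A and of IL1RAP over IL1R1 in every library, with 1 point per library and a line at the mean of 3. The IL1B over IL1A ratio averages 5.31 in SiNAT10_TGFB and 10.8 in con cells, and the IL1RAP over IL1R1 ratio averages 1.67 in both TGF-β1 groups and 0.888 in con cells.

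IL1RL1 (ENSG00000115602; chromosome 2, 102311502 to 102352037, plus strand), the interleukin-33 receptor ST2, was counted almost only with the siRNA. Counts were 8, 5 and 4 in SiNAT10_TGFB, 2, 6 and 8 in SiNAT10, 0, 0 and 0 in TGFB and 0, 0 and 2 in con libraries. Every siRNA library had more scaled counts than every library without siRNA. That separation rests on scaling in 1 place, where SiNAT10 replicate 1 and con replicate 3 each had 2 counts, at 0.0686 and 0.0625 CPM. Against a floor of 3 counts over the TGFB group, the pooled level of SiNAT10_TGFB was 6.47-fold higher. That value takes the 17 counts of SiNAT10_TGFB as exact, so it is not a lower limit. The exact counting intervals, 0.12 to 0.33 CPM in SiNAT10_TGFB and 0 to 0.0392 CPM in TGFB, allow a smaller fold. The ratio of pooled levels of SiNAT10 over con was 9.07, with an exact counting interval of 2.13 to 81.3. The gene shares 1.653% of its exon bases with IL18R1 and did not pass the count filter.

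Ordered by mean FPKM level, IL1B came first in all 4 groups. In con cells IL1A followed at 2.51 ± 0.0804 FPKM, IL1R1 at 2.15 ± 0.131 FPKM and IL1RAP at 1.9 ± 0.0198 FPKM. In TGFB cells IL1RAP, at 3.07 ± 0.116 FPKM, came before IL1A at 2.7 ± 0.601 FPKM, a gap within the spread of the IL1A libraries. With the siRNA IL1A was clearly second, at 48.4 ± 2.2 FPKM in SiNAT10_TGFB and 42.9 ± 5.15 FPKM in SiNAT10, followed by IL1RAP and IL1R1 at 5.22 ± 0.269 and 3.15 ± 0.346 FPKM in SiNAT10_TGFB (SD, n = 3 each). The merged exons span 3096 bases for IL1B, beside 1631 bases for its transcript used for GC content, and 2124 bases for IL1A. They span 11558 bases for IL1RAP, beside 5413 for its transcript, and 7083 bases for IL1R1, beside 5143. The FPKM of IL1B, IL1RAP and IL1R1 therefore depends on the length chosen. So does the order of IL1A, IL1R1 and IL1RAP in con cells.

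By edgeR's quasi-likelihood test at an adjusted p under 0.05, 6 of the 8 members passed the count filter, and the counts below only restate the values that chose them. For SiNAT10_TGFB against TGFB 5 were called, all higher, namely IL1A, IL1B, IL1R1, IL1RAP and IL33, where 53.1% of all 18560 genes tested were called, 26.3% higher and 26.8% lower. For SiNAT10 against con the same 5 were called higher, where 52.8% of all genes were called, 26.4% in each direction. For TGFB against con 2 were called, IL1RAP higher and IL1B lower, where 24.1% of all genes were called, 11.9% higher and 12.2% lower. For SiNAT10_TGFB against SiNAT10 0 were called, where 11.1% of all genes were called, 5.92% higher and 5.15% lower. In that comparison IL1RAP was called higher with DESeq2 (0.21), with each library's GC trend removed (0.23) and without SiNAT10 replicate 3 (0.27), and IL1A with the GC trend removed (0.22). The interaction, which is the TGF-β1 difference with the siRNA minus that without it, was called for IL1B at 0.31 (SE 0.084) and IL1RAP at −0.49 (SE 0.11), where 3.85% of all genes were called, 1.94% higher and 1.91% lower. The IL1B call was lost, at 0.27 to 0.32, without 7 of the 12 libraries taken singly, and under other settings given in the closing section.

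**Figure D3:**
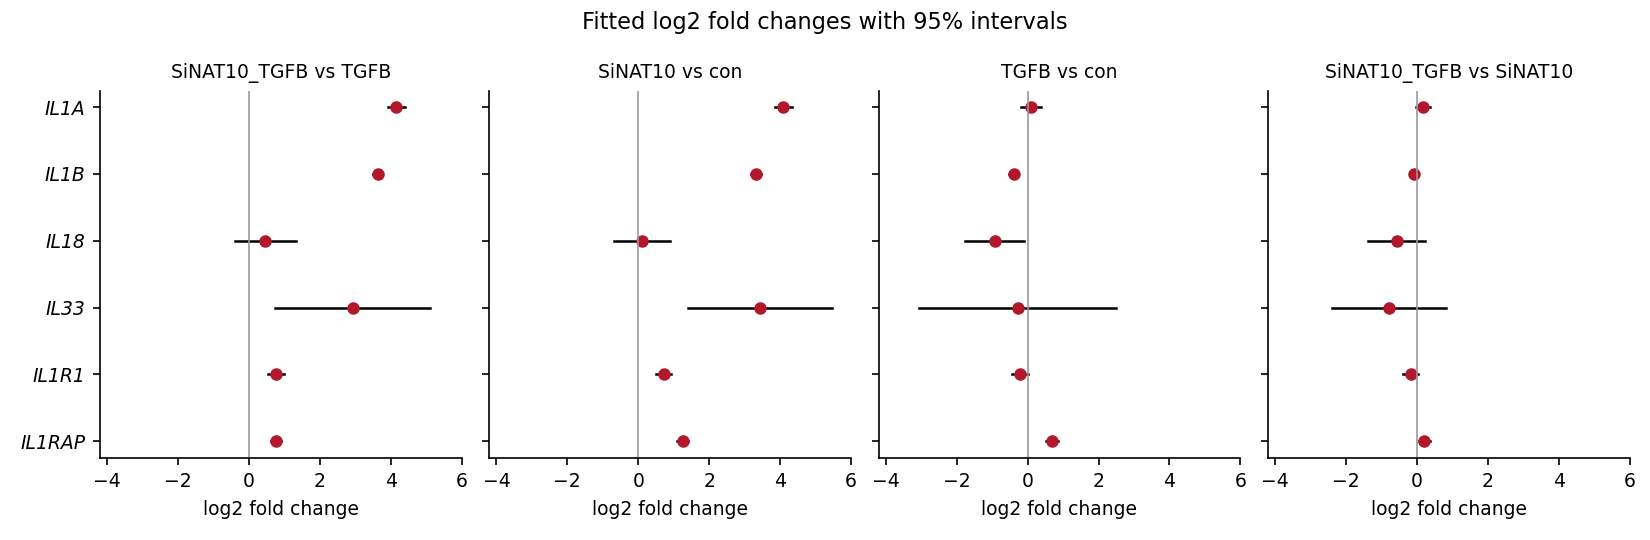
Fitted log2 fold change (points) with its 95% interval (lines) for the 6 members that passed the count filter, in the 4 comparisons named above each panel. IL1A reaches 4.16 and IL1B 3.63 for SiNAT10_TGFB against TGFB, IL1RAP alone is clearly above 0 for TGFB against con at 0.69, and the intervals of IL33 are wide.

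Other members of the family were few in these cells. Of 6 further ligands, IL36A, IL36B, IL36G, IL36RN and IL1F10 did not pass the count filter, and IL37, the remaining one, was not called in any comparison. Of 8 further receptors and binding proteins, the decoy receptor IL1R2, IL1RL2, both chains of the interleukin-18 receptor (IL18R1 and IL18RAP) and IL1RAPL2 did not pass. SIGIRR, an inhibitory receptor of the family, had 7.04, 9.1 and 7.03 CPM in SiNAT10_TGFB, 8.92, 9.39 and 10.5 CPM in SiNAT10, 5.68, 5.87 and 6.28 CPM in TGFB and 12.7, 14.2 and 12.8 CPM in con libraries. It fell with TGF-β1 in untransfected cells (log2 fold change −1.16, SE 0.13, adjusted p = 2.43e-07). The siRNA differences of SIGIRR had opposite signs, 0.38 under TGF-β1 (adjusted p = 0.0206) and −0.46 without it (adjusted p = 0.00329), and with each library's GC trend removed the difference without TGF-β1 was 0.06. The call under TGF-β1 was lost without TGFB replicate 1 (0.34), TGFB replicate 2 (0.37) or SiNAT10_TGFB replicate 2 (0.24), and with no count filter (0.37). IL18BP, a secreted protein that neutralises interleukin-18, fell with the siRNA both under TGF-β1 (−0.60, SE 0.12, adjusted p = 0.000222) and without it (−0.68, SE 0.13, adjusted p = 9.18e-05). IL1RAPL1, a neuronal relative of the accessory protein, was called higher for SiNAT10_TGFB against TGFB at 2.40 (SE 0.8, adjusted p = 0.0144), but not without TGFB replicate 2 (2.04).

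Of the tested genes tied to the processing and release of interleukin-1, 11 rose in each siRNA comparison. The list also holds inhibitors, such as CAST, which blocks calpains, and CARD16, which blocks caspase-1. CAST and CARD16 averaged higher in the siRNA group of each such comparison, so these counts do not measure processing. Of 21 such genes 19 passed the count filter (CASP5 and MEFV did not). For SiNAT10_TGFB against TGFB 11 rose and 3 fell, where 26.3% of all genes rose and 26.8% fell, with a median log2 fold change of 0.68 beside 0.01 for all genes tested. For SiNAT10 against con 11 rose and 3 fell as well, where 26.4% of all genes moved in each direction, with a median of 0.44 beside 0.02. TGF-β1 alone came with 1 higher and 9 lower, where 11.9% of all genes were higher and 12.2% lower, with a median of −0.22 beside −0.01. CASP4, an inflammatory caspase that senses bacterial lipopolysaccharide, had 92.3, 99.2 and 101 CPM in SiNAT10_TGFB, 141, 134 and 150 CPM in SiNAT10, 13.5, 14.3 and 14.2 CPM in TGFB and 27.5, 26 and 31 CPM in con libraries. All 4 groups were apart, with the siRNA groups highest and TGF-β1 lower on either side. CASP4 rose by 2.80 (SE 0.08, adjusted p = 1.1e-17) under TGF-β1 and by 2.33 (SE 0.076, adjusted p = 1.04e-16) without it, and fell by 1.01 with TGF-β1 alone. NLRP1, an inflammasome sensor, went the other way, with 84.4, 78.6 and 86.1 CPM in SiNAT10_TGFB, 59.8, 64.2 and 61.4 CPM in SiNAT10, 194, 188 and 195 CPM in TGFB and 120, 114 and 118 CPM in con libraries. Its log2 fold change was −1.21 (adjusted p = 8.14e-14) for SiNAT10_TGFB against TGFB, −0.93 (adjusted p = 1.21e-11) for SiNAT10 against con and 0.71 (adjusted p = 2.02e-09) for TGFB against con. TXNIP, which binds NLRP3, rose by 1.15 and 1.09 in the siRNA comparisons, and CAPN1, a calpain able to cut the interleukin-1α precursor, fell by 0.77 in both. AIM2, a DNA sensor, fell by 1.58 with TGF-β1 alone (adjusted p = 4.55e-07), and P2RX7, an ATP-gated channel that triggers release, fell by 1.29 (adjusted p = 2.5e-07).

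Adaptors and kinases between the receptor and NF-kB were called about as often as genes in general. All 19 passed the count filter. For SiNAT10_TGFB against TGFB 7 rose and 5 fell (median 0.08), for SiNAT10 against con 4 rose and 6 fell (median −0.05), and for TGFB against con 2 rose and 2 fell (median −0.03). Of all genes, 53.1%, 52.8% and 24.1% were called in these comparisons, with medians of 0.01, 0.02 and −0.01. IRAK2, a receptor-associated kinase that sustains NF-kB signalling, had 137, 131 and 135 CPM in SiNAT10_TGFB, 110, 105 and 91.5 CPM in SiNAT10, 46.4, 49 and 48.4 CPM in TGFB and 33.5, 33.9 and 36 CPM in con libraries. IRAK2 rose by 1.49 (SE 0.071, adjusted p = 3.61e-14) under TGF-β1, by 1.57 (SE 0.072, adjusted p = 2.95e-14) without it, and by 0.48 (adjusted p = 2.04e-05) with TGF-β1 alone. IRAK1, a kinase that acts with IRAK4 in the receptor complex, was at −0.59 (adjusted p = 5.41e-08) and −0.52 (adjusted p = 4.31e-07) in these siRNA comparisons. With the GC trend removed IRAK1 was at −0.10 and −0.04, not called. The 2 that fell with TGF-β1 alone were the kinase genes IKBKB (−0.40, adjusted p = 2.02e-05) and IRAK4 (−0.35, adjusted p = 0.00473). IKBKB was also lower for SiNAT10 against con (−0.29, adjusted p = 0.000369). Of the Pellino ubiquitin ligases, PELI1 rose by 0.68 (adjusted p = 2.88e-05) for SiNAT10_TGFB against TGFB and PELI2 rose by 0.69 (adjusted p = 0.000217) with TGF-β1 alone. PELI3 was at −0.72 (adjusted p = 0.000357) for SiNAT10_TGFB against TGFB and at −0.22, not called, with the GC trend removed.

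Genes known to rise in fibroblasts given interleukin-1 were higher with the siRNA for most of the list. Of 37 such genes 32 passed the count filter (CCL7, PTGES, SAA1, SAA2 and STEAP4 did not). For SiNAT10_TGFB against TGFB 27 rose and 1 fell, with a median of 1.71, where 26.3% of all genes rose and 26.8% fell with a median of 0.01. For SiNAT10 against con 28 rose and 1 fell, with a median of 1.72, where 26.4% of all genes moved in each direction with a median of 0.02. The single lower genes, chosen after their values were seen, were the cytokine gene LIF under TGF-β1 (−1.84, SE 0.09, adjusted p = 6.3e-14) and TNFAIP2 without it (−0.40, SE 0.061, adjusted p = 6.99e-06). With each library's GC trend removed, 0 targets were called lower for SiNAT10 against con, so TNFAIP2 was not. With TGF-β1 alone 10 rose and 14 fell, with a median of −0.34, where 11.9% of all genes rose and 12.2% fell. For SiNAT10_TGFB against SiNAT10 9 rose and 9 fell, where 5.92% of all genes rose and 5.15% fell. The list was compiled with earlier results of these data known, so it is not independent evidence of its direction, and these genes also respond to other inducers of NF-kB.

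CSF3, the granulocyte colony-stimulating factor, went furthest among the named targets. It had 69.8, 72.8 and 51.4 CPM in SiNAT10_TGFB, 68, 62.6 and 60.1 CPM in SiNAT10, 0.895, 0.466 and 0.27 CPM in TGFB and 0.436, 0.867 and 1.06 CPM in con libraries. The log2 fold change of CSF3 was 6.86 (SE 0.22, adjusted p = 3.44e-17) under TGF-β1 and 6.34 (SE 0.2, adjusted p = 8.87e-17) without it. MMP1, a collagenase, had 214, 245 and 210 CPM in SiNAT10_TGFB, 617, 586 and 678 CPM in SiNAT10, 28.3, 28.2 and 27.2 CPM in TGFB and 59.5, 57.9 and 60.4 CPM in con libraries. It rose by 3.00 (SE 0.072) and 3.40 (SE 0.071) with the siRNA, and was lower with TGF-β1 both with the siRNA (−1.49, adjusted p = 6.01e-14) and without it (−1.09, adjusted p = 2.79e-11). The neutrophil chemokine gene CXCL5 rose by 3.59 (SE 0.11) under TGF-β1 and by 2.95 (SE 0.11) without it, CXCL1 by 2.92 (SE 0.087) under TGF-β1, and complement C3 by 3.37 (SE 0.12) without it.

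Of the 32 tested targets, 7 had an interaction called higher, where 1.94% of all genes did. IL6 and LIF, related cytokines, were among 4 targets with an interaction called lower, where 1.91% of all genes were. The others, MMP1 at −0.40 (adjusted p = 0.0142) and the hyaluronan-binding protein gene TNFAIP6 at −1.78 (adjusted p = 0.0134), are added after their values were seen. TNFAIP6 averaged 3.34 CPM in SiNAT10_TGFB, 1.33 CPM in SiNAT10, 3.27 CPM in TGFB and 0.381 CPM in con cells. IL6 had 29.5, 29.3 and 31.6 CPM in SiNAT10_TGFB, 20.7, 23.7 and 20.2 CPM in SiNAT10, 35.5, 33.6 and 34.1 CPM in TGFB and 5.98, 6.7 and 6.84 CPM in con libraries. Con was the lowest group, and either agent alone came with a higher level. IL6 rose by 2.40 (SE 0.097, adjusted p = 5.31e-15) with TGF-β1 alone, and its interaction was −1.92 (SE 0.13, adjusted p = 2.15e-09). LIF had 41.4, 33 and 32.3 CPM in SiNAT10_TGFB, 27.3, 29.6 and 23.8 CPM in SiNAT10, 132, 126 and 125 CPM in TGFB and 28.2, 30.8 and 30.4 CPM in con libraries. It rose by 2.10 (SE 0.091, adjusted p = 1.62e-14) with TGF-β1 alone, and its interaction was −1.70 (SE 0.13, adjusted p = 1.02e-08). PTX3, a soluble pattern recognition protein, was lower with TGF-β1 both with the siRNA (−1.59) and without it (−2.44), and that difference was smaller with the siRNA (interaction 0.85, adjusted p = 6.05e-06).

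**Figure D4:**
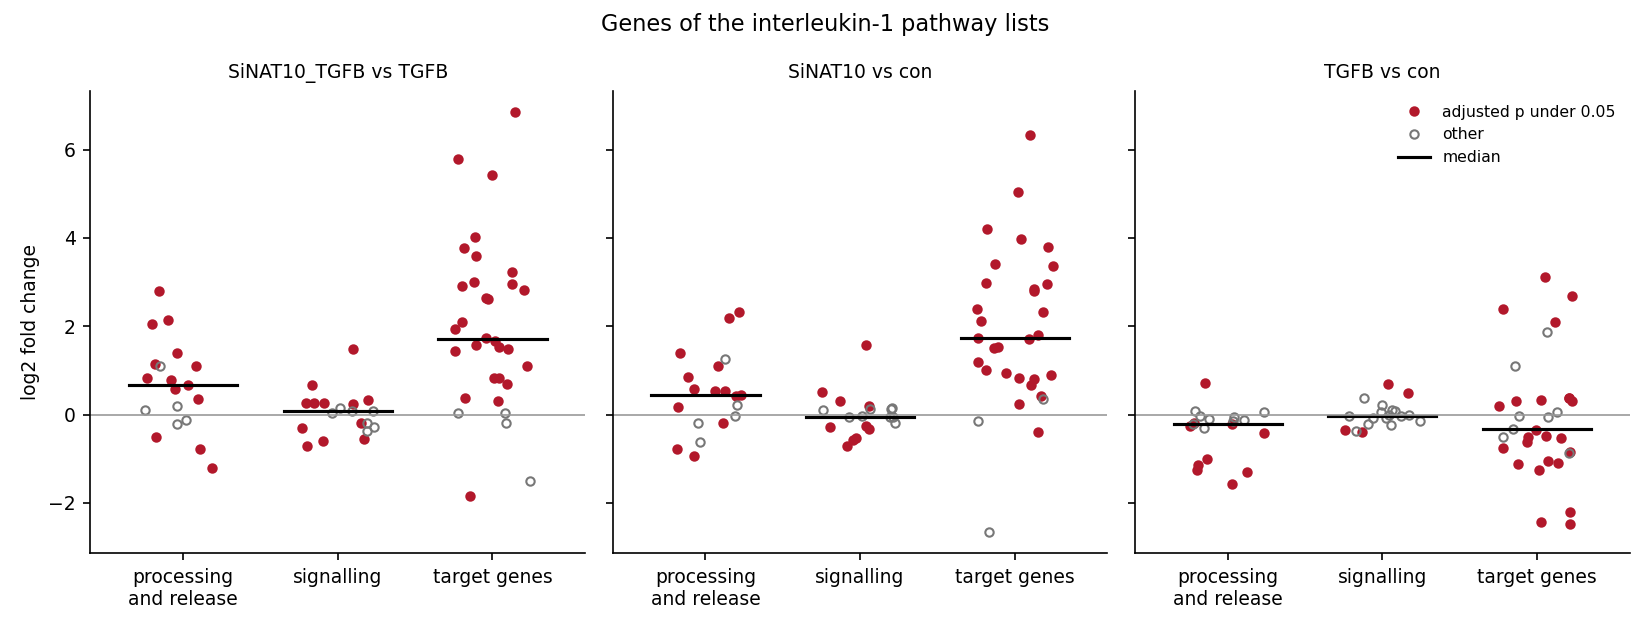
Log2 fold change of each tested gene of the processing and release, signalling and target lists in 3 comparisons, with filled points for genes called at an adjusted p under 0.05, open points for the others and a line at the list median. The target genes have medians of 1.71 and 1.72 in the siRNA comparisons and −0.34 for TGFB against con, while the signalling medians are 0.08, −0.05 and −0.03.

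IL1A and IL1B lie 45161 bp apart, and their siRNA differences were set beside those of other tested genes in the region. Within 300 kb of either gene 8 other genes were tested, a window chosen after the values were seen. In each siRNA comparison 2 rose, 1 fell and 5 were not called, where 26.3% of all genes rose and 26.8% fell under TGF-β1 and 26.4% moved in each direction without it. CKAP2L, a mitotic spindle gene 9238 bp from IL1A, had 108, 110 and 118 CPM in SiNAT10_TGFB, 116, 122 and 136 CPM in SiNAT10, 110, 123 and 106 CPM in TGFB and 138, 128 and 133 CPM in con libraries. Its log2 fold change was −0.01 (SE 0.07, adjusted p = 0.939) under TGF-β1 and −0.09 (SE 0.07, adjusted p = 0.278) without it, but with the GC trend removed it was called at −0.19 and −0.28. The phosphate transporter gene SLC20A1 rose by 0.32 (SE 0.059) and 0.42 (SE 0.059), the RNA polymerase I subunit gene POLR1B by 0.21 (SE 0.079) and 0.33 (SE 0.079), and the tubulin ligase gene TTL was at −0.26 (SE 0.056) in both. The POLR1B call for SiNAT10_TGFB against TGFB was lost without either of 2 TGFB libraries or either of 2 SiNAT10_TGFB libraries (0.16 to 0.22), and with the GC trend removed (0.06). Its call for SiNAT10 against con was lost with the GC trend removed and the replicate block (0.16). Beside IL1RAP, at a distance of 191576 bp, the tight junction gene CLDN1 had 35.8, 33.9 and 39.3 CPM in SiNAT10_TGFB, 55.1, 58 and 57.7 CPM in SiNAT10, 4.97, 5.72 and 6.51 CPM in TGFB and 6.71, 5.23 and 5.81 CPM in con libraries. CLDN1 rose by 2.67 (SE 0.11, adjusted p = 2.78e-15) under TGF-β1 and by 3.26 (SE 0.11, adjusted p = 1.52e-16) without it. Tested neighbours of IL1R1, IL1RN, IL18 and IL33 are not described here, so CLDN1 does not stand for neighbours of the members in general.

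**Figure D5:**
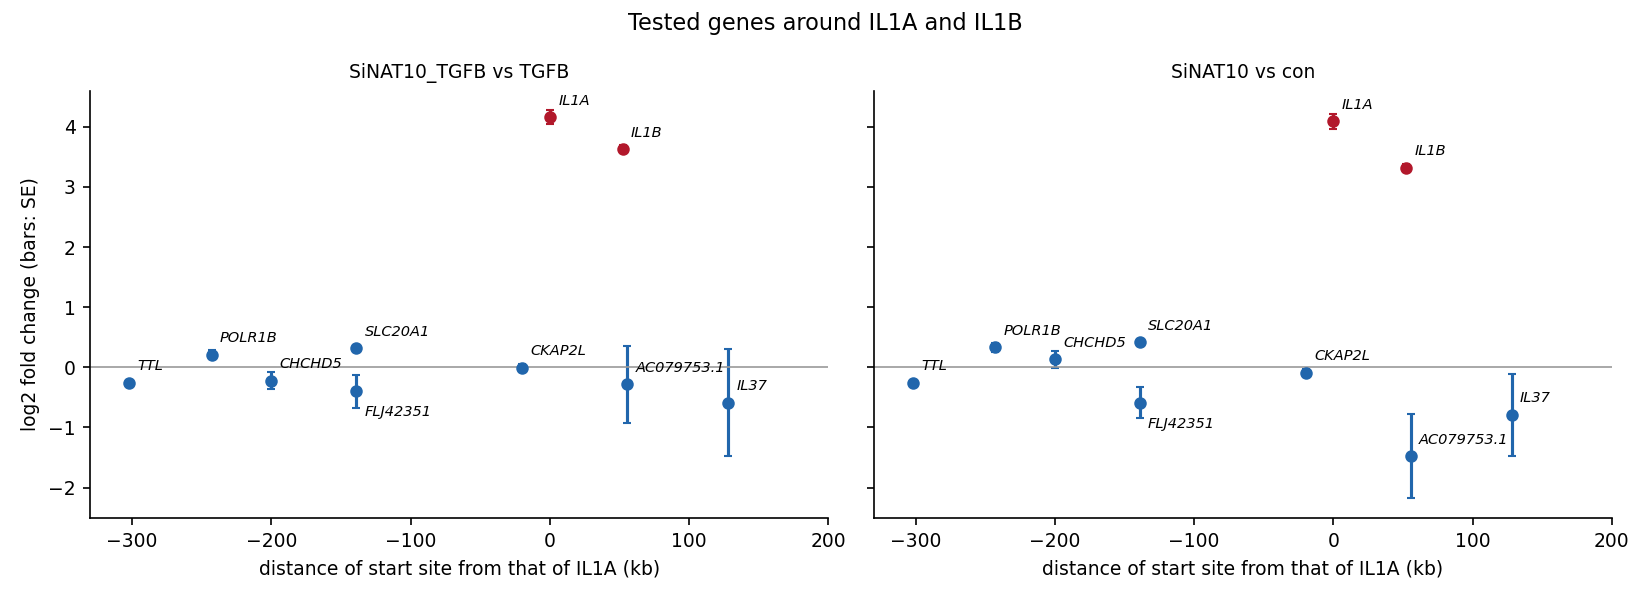
Log2 fold change with its SE for the tested genes around IL1A and IL1B, against the distance of each start site from that of IL1A in kb along the chromosome, with both interleukin genes in red and their neighbours in blue. IL1A and IL1B stand at 3.32 or more in both siRNA comparisons, and CKAP2L next to IL1A stands at −0.01 and −0.09.

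Among 13039 genes with a mean of at least 50 counts, the ones most like each member over the 12 libraries were found by Pearson r of log2 CPM. The points fall into 4 groups of 3 that share treatment and library scaling, so r mostly follows the differences between groups. IL1A was closest to the phosphatase gene PTPRR and to TMEM156 (both r = 0.996), and IL1B to the TGF-β receptor gene TGFBR2 (r = 0.999) and to RRN3 (r = 0.997). TGFBR2 had 255, 257 and 261 CPM in SiNAT10_TGFB, 285, 265 and 269 CPM in SiNAT10, 98.1, 96.1 and 98.3 CPM in TGFB and 105, 109 and 110 CPM in con libraries, the same order of groups as IL1B. IL1R1 was closest to DDIT4L (r = 0.982) and KDM4C (r = 0.979), and IL1RAP to TRIB1 (r = 0.99) and WSB2 (r = 0.989). For the low-count members, IL18 was closest to APOLD1 (r = 0.956) and AC007388.1 (r = 0.918), and IL33 to PEX3 (r = 0.92) and EID2B (r = 0.917).

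Macrophages are a main source of interleukin-1β in tissue, so leukocyte markers were read beside these values. Of 12 macrophage and leukocyte markers 4 passed the count filter (CD14, CSF1R, FCER1G and ITGAM). The list of 12 summed to 10.3 to 10.5 CPM in SiNAT10_TGFB, 8.59 to 9.14 CPM in SiNAT10, 8.61 to 9.55 CPM in TGFB and 5.87 to 6.71 CPM in con libraries. This sum was above con with TGF-β1 alone as well as with the siRNA, and its part in the interleukin values was not tested. ITGAM averaged 2.38 CPM in SiNAT10_TGFB and 0.354 CPM in TGFB, and 1.99 CPM in SiNAT10 and 0.58 CPM in con cells. CD14 averaged 4.13 CPM in SiNAT10_TGFB and 1.56 CPM in TGFB, and 4.4 CPM in SiNAT10 and 3.13 CPM in con cells. FCER1G averaged 1.21 CPM in SiNAT10_TGFB and 0.611 CPM in TGFB, and 0.624 CPM in SiNAT10 and 0.346 CPM in con cells. CSF1R went the other way, with 2.33 CPM in SiNAT10_TGFB and 6.08 CPM in TGFB, and 1.32 CPM in SiNAT10 and 1.88 CPM in con cells. The pan-leukocyte gene PTPRC had 4, 0, 7 and 6 counts over the SiNAT10_TGFB, SiNAT10, TGFB and con groups, and the Kupffer cell receptor MARCO had 0 in all libraries. The sensor adaptor TYROBP had 1 count in TGFB and 0 in the other groups. CD68, which did not pass the filter, shares 81.727% of its exon bases with the same-strand gene AC016876.2. Of the exon bases of LYZ, which also did not pass, 33.957% lie opposite AC020656.1. Reads from such bases may not be counted for CD68 or LYZ, so their low counts need not mean absence.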

How the data were processed

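RNA of 12 LX-2 libraries, 3 in each of 4 groups, was sequenced. The authors deposited raw gene counts. The submitters' processing notes list fastp, HISAT2 2.2.1 and hg38, while the tool for counting, the annotation and the strand setting were not given in the sources used here. Without a known strand setting, reads of a gene and of an overlapping antisense gene may not be separated. The deposited FPKM equalled the counts per length up to 1 factor per library (0.9334 to 1.088), and they were used for comparisons between genes and in alternatives. Positions and exon overlaps came from GENCODE release 29, where the coordinates of all 58735 identifiers matched.

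Tests used edgeR 4.0.16 under R 4.3.3. Its filterByExpr with its defaults kept 18560 genes and 99.88 to 99.93% of the counts, TMM factors were 0.9217 to 1.069, and 1 quasi-likelihood fit with 4 group means gave 4 contrasts and the interaction, with Benjamini-Hochberg adjustment over all genes and a threshold of 0.05. SE is the absolute log2 fold change divided by the square root of F. A count of 3 equals 0.0871 to 0.115 CPM in a library, which limits low values, and intervals on counts cover counting error only. The members, lists and motifs were chosen with earlier results of these data known. Genes named from each list were mostly taken from the up to 4 called genes with the smallest p per comparison. Not all of those are named, so the named genes are not the complete top of a list. Alternatives used other scalings and filters, DESeq2 1.42.0, limma 3.58.1 on counts (voom) and on log2(FPKM + 0.1) or log2(FPKM + 1), the replicate number as a block, removal of a GC trend (spline of 5 degrees of freedom, 18552 genes), and omission of each library. Replicate numbers were not treated as pairs. The scripts were tested on simulated data. Promoter windows are from RefSeq.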

Additional observations from a re-analysis of the deposited data

Results flagged for a closer look

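The log2 TGF-β1 difference with the siRNA minus that without it, called the interaction, stood out for 9 genes named here. For the members IL1B, at 0.31, and IL1RAP, at −0.49, this is a description without a test, since their values chose them. The IL1B value was no longer past the threshold without 7 of 12 libraries taken singly, nor with voom, the replicate block or FPKM, and that of IL1RAP was not with FPKM. IL1B averaged 791 CPM in SiNAT10_TGFB and 836 CPM in SiNAT10, against 64.1 CPM in TGFB and 83.8 CPM in con cells. IL1RAP averaged 60.2 CPM in SiNAT10_TGFB and 52.3 CPM in SiNAT10, against 35.6 CPM in TGFB and 22 CPM in con cells. Outside the members, by edgeR's quasi-likelihood test, the inhibitory receptor SIGIRR stood at 0.84 (SE 0.18, adjusted p = 0.00745), the DNA sensor AIM2 at 1.18 (SE 0.25, adjusted p = 0.00596) and the caspase CASP4 at 0.47 (SE 0.11, adjusted p = 0.0116). Of these, CASP4 was not called with FPKM (0.23 to 0.43) or without con replicate 3 (0.39), and AIM2 was not with unfiltered FPKM (1.13). Among the interleukin-1 target genes, IL6 stood at −1.92, LIF at −1.70, PTX3 at 0.85 and CXCL1 at 0.79.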

How the results depend on the processing

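Over 14 alternative settings and 12 omissions of a library, the number of the 32 interleukin-1 target genes called higher was 27 for SiNAT10_TGFB against TGFB in each omission and 27 to 28 for SiNAT10 against con. Values of IL1A, IL1B, IL1R1 and IL1RAP in those comparisons kept direction and call throughout. These members were chosen by the same differences, so this describes the settings and is not a test of the members. With scaling to library size alone, 1410 genes were higher and 4623 lower for TGFB against con, 1510 lower for SiNAT10_TGFB against SiNAT10 and 641 higher in the interaction. The median of all genes then moved by −0.14 for TGFB against con and by 0.13 for SiNAT10_TGFB against TGFB, and 23.4% and 61.3% of calls were higher in place of 49.5% and 49.6%. For SiNAT10_TGFB against SiNAT10 36.7% were higher in place of 53.5%, and for the interaction 68.9% in place of 50.4%. That scaling also gave 7 lower signalling genes for TGFB against con, 3 lower ones for SiNAT10_TGFB against TGFB and 1 higher release gene for SiNAT10_TGFB against SiNAT10, and called IL1R1 (−0.36) and IL18 (−1.07) for TGFB against con.

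With unfiltered FPKM and a pseudocount of 0.1, 602 genes were lower for SiNAT10_TGFB against SiNAT10, and in the interaction 172 were higher and 194 lower, with 5 higher and 2 lower over all lists, 4 and 2 among the targets and 0 higher in the release list. With the GC trend removed the interaction had 818 higher and 603 lower genes (702 and 535 with the replicate block added), the release list had 4 higher and 1 lower, the signalling list had 5 higher for SiNAT10_TGFB against SiNAT10 (4 with the block) and, with the block, 4 higher for SiNAT10_TGFB against TGFB. The lower target genes numbered 0 to 2 for SiNAT10 against con (0 with the GC trend removed, 2 with no count filter) and 1 to 3 for SiNAT10_TGFB against TGFB (2 with a mean of at least 50 counts, with voom or with the GC trend removed, 3 with only the 2 groups or with FPKM). For SiNAT10_TGFB against SiNAT10, 1 signalling gene was lower with only the 2 groups or with unfiltered FPKM, and 1 release gene was higher with FPKM. In the interaction 1 release gene was lower with the upper quartile, a mean of at least 50 counts, DESeq2 or a pseudocount of 1, and 1 was higher with filtered FPKM. Omitting a library gave ranges of 1 to 2 lower targets for SiNAT10 against con, 1 to 2 higher release genes and 1 to 2 lower signalling genes for SiNAT10_TGFB against SiNAT10, and 1 to 3 higher and 0 to 1 lower release genes in the interaction.

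Signs changed only for values that were not called, apart from SIGIRR for SiNAT10 against con (0.06 with the GC trend removed, 0.05 with the block too). These were IL1A for TGFB against con (−0.04 with library size alone, −0.10 to 0.20 over omissions) and in the interaction (−0.03 to 0.27 over omissions), IL18 for SiNAT10 against con (−0.10 with the GC trend removed, −0.11 with the block too, −0.07 to 0.26 over omissions, lowest without con replicate 2), and IL1R1 in the interaction (down to −0.02). IL33 changed sign for TGFB against con (0.04 with voom, 0.22 without TGFB replicate 3, −0.84 to 1.27 over omissions), for SiNAT10_TGFB against SiNAT10 (−1.31 to 0.22 over omissions) and in the interaction (0.00 with the GC trend removed and the block, −2.05 to 0.51 over omissions). CKAP2L for SiNAT10_TGFB against TGFB was 0.12 with library size alone, 0.01 with the upper quartile, 0.00 with FPKM and −0.05 to 0.06 over omissions. The IL33 call for SiNAT10_TGFB against TGFB was lost with all 3 FPKM settings (0.13 to 0.86), without TGFB replicate 3 (2.43) and without SiNAT10_TGFB replicate 3 (2.48). That for SiNAT10 against con was lost with a pseudocount of 1 (0.21), with unfiltered FPKM (1.10) and without SiNAT10 replicate 2 (2.43). The IL1RAP interaction was not called with FPKM (−0.46 and −0.31), and that of IL1B not with voom, FPKM or the replicate block (0.30 to 0.31). With the replicate number as a block, the interaction had 591 called genes in place of 714, and same-numbered libraries did not deviate together (correlations of −0.0729 to 0.0485 over 18 pairs, with 1 of 12 libraries closest to its own number). The causes were not tested. Depth limits IL18, IL33, IL1RL1 and IL1RN.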
